A study of Homo sapiens with 6 samples.

Results

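The clustered replication-dependent histone genes were examined in SK-N-AS, an established neuroblastoma line of human origin, after knockdown of the splicing factor Prp19. Members were the protein-coding genes whose older symbols begin with HIST1H, HIST2H, HIST3H or HIST4H. By this rule there were 71 genes among the 58735 genes of the tables, comprising 6 H1, 17 H2A, 18 H2B, 15 H3 and 15 H4 genes. Of these, 55 carry HIST1 names, 12 HIST2, 3 HIST3 and 1 HIST4. Cells received siRNA directed at Prp19 (siPrp19) or a negative control siRNA (NC), and the labels give 72 h of transfection for both, whereas the study's methods give a shorter time. All libraries came from the same cell line. The study's methods call the replicates biological, while neither they nor the labels say whether each came from its own culture, and p-values measure the spread between these libraries.

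Histones package DNA into nucleosomes, in which pairs of H2A, H2B, H3 and H4 form the core and H1 binds the linker DNA. Most replication-dependent histone genes lack introns and are transcribed in S phase, when new chromatin is assembled. Their mRNAs usually end in a conserved stem-loop instead of a poly(A) tail. The stem-loop is bound by SLBP, and the cut behind it is made by a complex that contains the U7 small nuclear RNA. Prp19 is the core of a protein complex that acts in the spliceosome, a machinery that intronless transcripts do not need for their maturation. Some histone genes can also give longer, polyadenylated transcripts.

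The stem-loop is shown because it separates the usual end of these mRNAs from the exon annotated behind it. A 16-base stem-loop lay within the annotated exons of 32 of the 71 members (GENCODE 29, GRCh38). Only exon outside the coding sequence was searched. The 33 members annotated by their coding sequence only, H2BC12 and H1-2 among them, could therefore not show a stem-loop. The stem-loop had the same letters in 17 genes, 6 of them H2A, 8 H2B and 3 H3. Other letters were found in the H4 genes, in H3C6 and H2AC11, and in 3 further H2B and 2 further H3 genes. The following 8 members with high levels or named differences are given as DNA, 5′ to 3′, with the stem-loop in capitals and 5 flanking bases on each side. The coordinates are those of the capitals.
H2BC5, chr6:26158587-26158602, plus strand: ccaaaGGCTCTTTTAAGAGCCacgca
H2AC25, chr1:228457369-228457384, minus strand: ataaaGGCTCTTTTCAGAGCCaccta
H4C9, chr6:27139654-27139669, plus strand: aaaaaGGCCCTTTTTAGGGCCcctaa
H2AC6, chr6:26124669-26124684, plus strand: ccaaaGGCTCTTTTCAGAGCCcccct
H2BC21, chr1:149886188-149886203, minus strand: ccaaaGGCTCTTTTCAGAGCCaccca
H4C8, chr6:26285131-26285146, minus strand: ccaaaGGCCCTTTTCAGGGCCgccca
H2BC4, chr6:26123472-26123487, minus strand: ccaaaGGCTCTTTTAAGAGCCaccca
H3C6, chr6:26225596-26225611, plus strand: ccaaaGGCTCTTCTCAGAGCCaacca
Behind the stem-loop, 390 annotated exon bases followed in H2AC25 and 1729 in H2BC21, both annotated as 1 exon block. In H2AC6, 1128 exon bases followed, counted over a gene model of 2 separate exon blocks. By model, members fell into genes annotated by their coding sequence only (33), genes with short ends (12) and extended genes (26). The extended genes had long noncoding exon sequence, several exon blocks or both. The models of H2AC6, H2BC4, H2BC5, H2BC11, H3C6 and H3C12 had 2 exon blocks. Those of H4C8, H4C14, H4C15 and H4C16 had 3, and those of H2BC6, H2BC15 and H2BC18 had 4. Not all members were thus annotated without an intron.

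Promoters were examined next, since histone genes share known promoter elements. RefSeq promoters (GRCh38.p14), covering 250 bases before to 50 bases after the start, were matched for 66 members. On either strand, the TATA letters TATAAA occurred in 66.7% of them and in 11.5% of 35097 promoters of all genes. The letters CCAAT occurred in 84.8% of member promoters and 34.6% of all promoters, with all H1, H2A, H2B and H3 promoters holding them but only 3 of 13 H4 promoters. The octamer ATTTGCAT, known from H2B promoters, occurred in 39.4% of member promoters and 1.77% of all promoters. It was found in 14 of 18 H2B, 11 of 16 H2A, 1 of 13 H3 and none of the H1 and H4 promoters. The H3 entry is that of H3C4, which is the same stretch as the H2AC7 entry and lies apart from the H3C4 exon in GENCODE, so no H3 promoter of its own held the octamer. Promoter windows of neighbouring genes on opposite strands can also overlap. The same octamer site was counted for both genes in H2AC1/H2BC1, H2AC6/H2BC4, H2AC7/H2BC7, H2AC8/H2BC8, H2AC11/H2BC11, H2AC14/H2BC14, H2AC17/H2BC17 and H2AC20/H2BC21. The member shares above thus hold some sites more than once. The 3 promoters below belong to the members with the highest levels, H2BC12 and H1-2, and to H2BC21, the only member past the adjusted threshold below. Capitals mark these motifs on either strand, so that adjoining or overlapping motifs run together, and the letters say nothing of binding.
H2BC12 promoter, chr6:27146809-27147108, minus strand: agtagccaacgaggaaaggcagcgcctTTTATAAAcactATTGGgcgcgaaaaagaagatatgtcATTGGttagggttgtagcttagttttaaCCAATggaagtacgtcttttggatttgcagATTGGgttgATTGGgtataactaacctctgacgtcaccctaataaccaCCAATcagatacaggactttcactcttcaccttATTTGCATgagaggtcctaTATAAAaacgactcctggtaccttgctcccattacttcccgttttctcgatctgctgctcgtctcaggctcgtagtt
H1-2 promoter, chr6:26056421-26056720, minus strand: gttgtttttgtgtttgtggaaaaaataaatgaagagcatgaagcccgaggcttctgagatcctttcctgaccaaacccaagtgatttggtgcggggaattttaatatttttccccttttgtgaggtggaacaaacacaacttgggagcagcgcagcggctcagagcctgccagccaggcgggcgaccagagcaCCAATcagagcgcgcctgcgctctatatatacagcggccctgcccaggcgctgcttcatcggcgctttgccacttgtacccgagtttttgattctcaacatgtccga
H2BC21 promoter, chr1:149886633-149886932, minus strand: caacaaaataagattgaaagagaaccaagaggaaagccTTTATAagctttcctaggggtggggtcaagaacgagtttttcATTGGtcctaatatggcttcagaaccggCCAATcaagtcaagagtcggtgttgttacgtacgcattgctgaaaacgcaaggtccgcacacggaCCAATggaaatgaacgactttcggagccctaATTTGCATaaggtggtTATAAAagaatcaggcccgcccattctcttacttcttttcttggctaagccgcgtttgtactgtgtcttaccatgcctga
H2BC12 and H2BC21 held all 3 motifs, whereas the H1-2 promoter held CCAAT but neither TATAAA nor the octamer.

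The libraries are named here by the value column of each table: NCa, NCb and NCc, and siPrp19a, siPrp19b and siPrp19c. The table with column NCb is recorded under a sample labelled siPrp19, and the table with column siPrp19b under a sample labelled NC. The targeted gene was therefore read first. PRPF19 (ENSG00000110107, chromosome 11, from 60890730 to 60906588 on GRCh38) was at 83.0, 83.1 and 93.0 FPKM in NCa, NCb and NCc, and at 19.6, 19.1 and 18.5 FPKM in siPrp19a, siPrp19b and siPrp19c. FPKM counts the fragments for each kilobase of exon in a gene and is scaled to the size of the library. Its level thus followed the column names in all 6 libraries and went against the recorded label of the libraries with columns NCb and siPrp19b. With groups by column name, the PRPF19 log2 fold change was -2.12 ± 0.074 (SE, limma adjusted p = 0.000215), and the 2-sided exact permutation p was 0.1, the smallest possible with 3 against 3 libraries. With groups by recorded label it was -0.74 ± 0.73 (SE, limma adjusted p = 1.00). Below, NC and siPrp19 mean column names unless stated. Values for the 4 libraries whose column name and label state the same group (NCa, NCc, siPrp19a and siPrp19c), and for all 6 by recorded label, are given for the genes nearest the threshold and in counts over the members.

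Between 14887132 and 19977811 reads per library were recovered from the FPKM values. Mitochondrial genes took 8.29% of the reads in siPrp19a and 5.15% to 5.49% in the others. By chi-square per degree of freedom of the recovered reads, NCa and NCb (1.67) and siPrp19b and siPrp19c (2.45) were close, while the 13 other pairs ranged from 16.0 to 41.3. No pair agreed within sampling noise, and all 6 libraries were kept and counted as separate replicates. If the libraries of a close pair did not come from separate cultures, p-values by column name would be too small. Of 10 sympathoadrenal markers, 9 passed the filter, among them GATA3 at 22.8 to 30.7 FPKM, and TH was at 0.312 to 0.662 FPKM. All 5 listed markers of mesenchymal neuroblastoma passed the filter too. Markers of epithelial, Schwann and endothelial cells were each under 1 FPKM in every library. Of the blood markers, PTPRC was at 16.9 to 30.7 FPKM, while CD3E had no read and CD79A stayed under 0.1 FPKM.

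Most histone genes were detected at low levels. Between 56 and 58 of the 71 members had a read in any one library, and between 29 and 34 had at least 10 reads. In every library at once, 37 members had at least 3 reads, 25 at least 10 and 17 at least 30. There were 6 members without a read in any library, which were H2AC1, H2BC1, H2AC7, H2AC15, H3C4 and H3-7. At 0 reads, up to 3 reads per library would be within counting error, and such intervals cover counting error only. For H2AC7, H2AC15, H3C4 and H3-7, over 80% of the exon bases were shared with another annotated gene, and 1 other member, H2AC17, shared as much. How reads in shared exons were counted was not given in the sources used here, so these genes are uncertain.

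Detection varied with the gene model. Among the 26 members with extended exons, 24 had at least 3 reads in every library, and their median was 2.01 FPKM. Among the 33 members annotated by the coding sequence only, 7 had at least 3 reads in every library, and their median was 0.281 FPKM. The 12 members with short ends had a median of 0.594 FPKM, and 6 of them had at least 3 reads throughout. Longer models collect more reads at the same FPKM, which bears on the read counts. FPKM itself is computed from the annotated exon length, and the part of the model in these medians was not tested. Both highest members nevertheless had coding-only models of 381 bases (H2BC12) and 642 bases (H1-2).

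**Figure D1:**
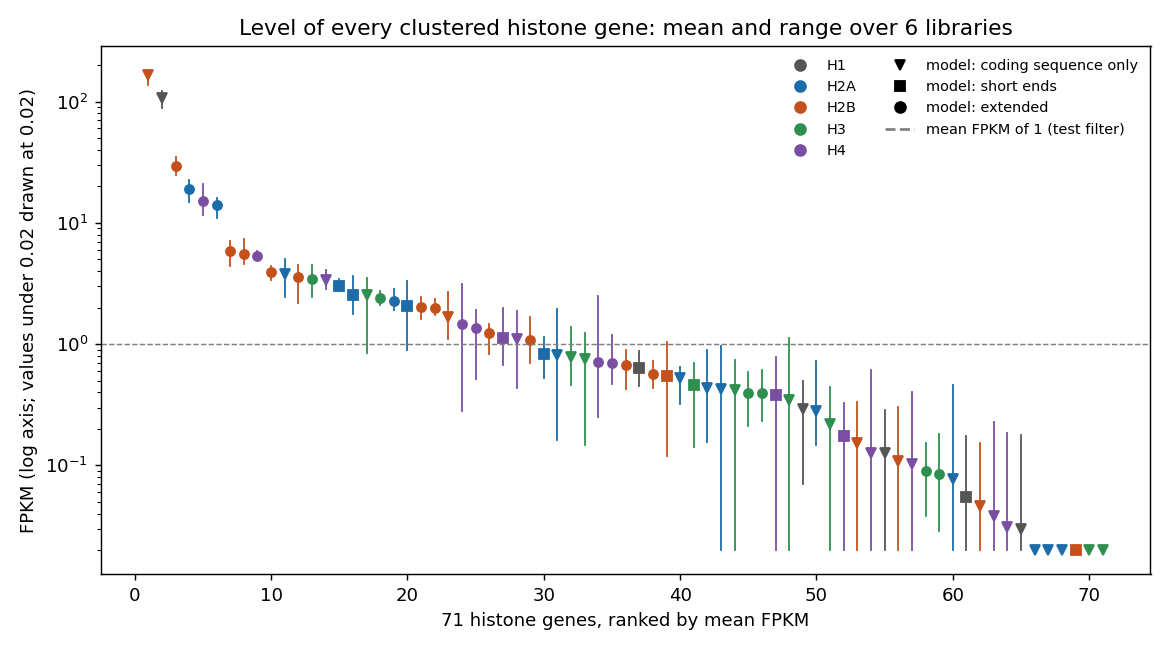
Mean FPKM (symbols) and range over the 6 libraries (lines) of all 71 histone genes on a log axis, ranked by mean, with colours for the histone class and symbols for the gene model. The 29 genes above the dashed line at 1 FPKM were tested, and the 6 genes without reads lie at the lower edge.

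Levels were dominated by an H2B and an H1 gene. H2BC12 (HIST1H2BK, chromosome 6, 27146418 to 27146798 on GRCh38) encodes an H2B and was the highest member, at 152, 136 and 174 FPKM in NCa, NCb and NCc and 178, 182 and 176 FPKM in siPrp19a, siPrp19b and siPrp19c. All siPrp19 values lay above all NC values, with NCc the closest of them. H1-2 (HIST1H1C, chromosome 6, 26055787 to 26056428), a linker histone gene, was at 89.1, 93.3 and 123 FPKM in the NC libraries and 112, 107 and 113 FPKM in the siPrp19 libraries, so that the groups overlapped, with NCc the highest library. Together both genes made up 61.8% to 65.3% of the summed FPKM of all members. The 5 other H1 genes were each below 1 FPKM on average, the highest being H1-4 at 0.641 FPKM.

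The next members were H2BC5, H2AC25, H4C9 and H2AC6. H2BC5 (HIST1H2BD) was at 27.6, 25 and 35.2 FPKM in NC and 29.4, 27.5 and 32.2 FPKM in siPrp19, with overlapping groups. H4C9 (HIST1H4I), the highest H4 gene, was at 15.3, 11.6 and 15.5 FPKM in NC and 20.7, 14.0 and 14.2 FPKM in siPrp19, where siPrp19a alone stood above the NC libraries. These 4 genes together with H2BC12 and H1-2 held 79.9% to 83.4% of the summed level. The highest H3 gene was H3C10, with a mean of 3.43 FPKM, so that H3 genes reached lower levels per length than the highest genes of the 4 other classes. The ranking on this scale assumes that the annotated exon is the transcribed unit. Neighbours from H2BC21 (mean 5.84 FPKM) to H4C8 (5.33 FPKM) had overlapping ranges over the 6 libraries. H4C8 (HIST1H4H) was at 5.52, 5.14 and 5.21 FPKM in NC and 5.85, 5.01 and 5.22 FPKM in siPrp19, and H2BC8 (HIST1H2BG) was at 4.24, 3.58 and 3.87 FPKM in NC and 3.38, 4.11 and 4.41 FPKM in siPrp19. In both genes the groups overlapped.

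**Figure D2:**
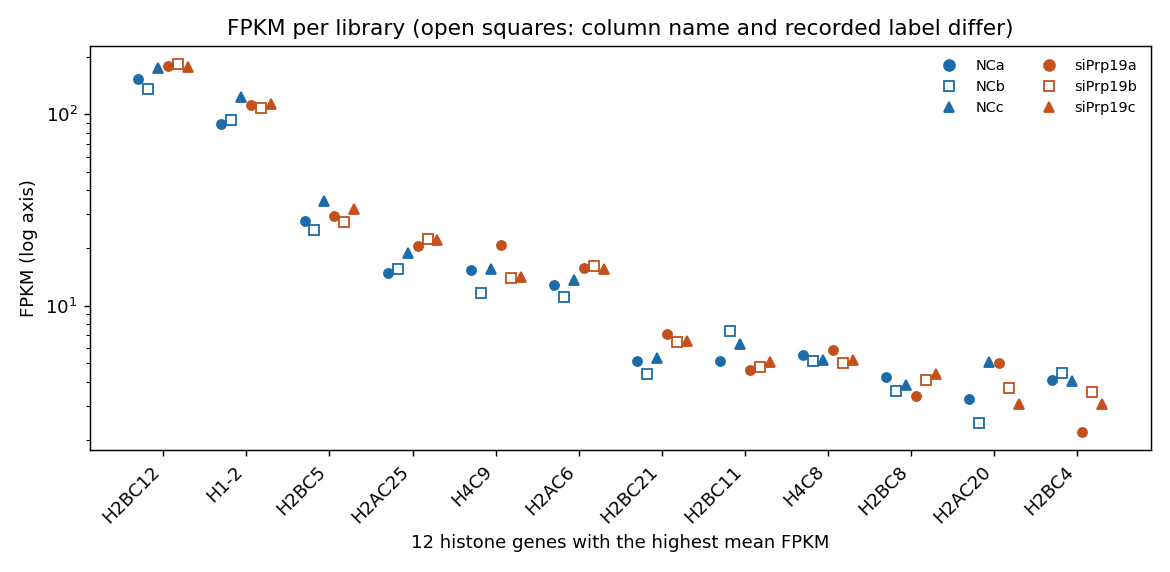
FPKM (log axis) of the 12 highest histone genes in each library, with NC in blue and siPrp19 in orange by column name. Open squares are NCb and siPrp19b, whose recorded labels state the other group. In H2BC12, H2AC25, H2AC6 and H2BC21 all siPrp19 points lie above all NC points, and in H2BC11 and H2BC4 all lie below.

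Many histone genes are arranged head to head and share the DNA between their starts. Within 1000 bases there were 12 such pairs among the members, 11 of them an H2A with an H2B gene. The partners ranged from similar levels to very different ones, and both H2AC1 and H2BC1 had no reads. H2BC12 had a mean of 166 FPKM and its partner H2AC12, whose start lies 331 bases away, 0.814 FPKM. H2AC25 was at 19.0 FPKM and H2BC26 at 1.24 FPKM, whereas H2BC21 (5.84 FPKM) and H2AC20 (3.76 FPKM) were closer, as were H2BC8 (3.93 FPKM) and H2AC8 (3.00 FPKM). Both partners passed the test filter in 5 pairs, and in 3 of these both fold changes had the same sign. In the pair of H2AC6 and H2BC4, with starts 219 bases apart, the log2 fold changes were 0.32 and -0.41.

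Near-identical copies limit the counts of single genes. In 16 members, at least 50% of all 100-base stretches of the longest transcript occurred unchanged in transcripts of another gene, and in 47 members none did. H4C14 and H4C15, which lie on chromosome 1, were such a pair in full. H4C15 had 55, 17 and 30 reads in NC and 95, 9 and 83 reads in siPrp19, and H4C14 had 8, 7 and 19 reads in NC and 11, 9 and 98 reads in siPrp19. The H4C15 log2 fold change was 0.31 ± 0.43 (SE, limma adjusted p = 0.724), and values of these genes are uncertain. By contrast, no such stretch was shared in H1-2, H2BC5, H2AC25, H4C9, H2AC6 or H2BC11, and 2.63% were shared in H2BC21 and 28.4% in H2BC12.

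To examine whether histone transcripts changed with knockdown of Prp19, the 29 members with a mean of at least 1 FPKM were tested in a fit of all 13718 such genes. Of the 42 other members, 36 had at least 1 read. Those nearest to the limit were H2BC6 at 1.09 FPKM inside and H2AC18 at 0.827 FPKM outside. By column name, 1 of the 29 tested members (3.45%) passed an adjusted p of 0.05, against 7.94% of all tested genes. Of all tested genes, 353 rose (2.57%) and 736 fell (5.37%). At an unadjusted p under 0.05 there were 6 of 29 members (20.7%), against 23.6% of all genes. Fold changes were above 0 in 19 members and below 0 in 10, and their median log2 fold change was 0.039, compared with -0.020 over all tested genes. Without the filter this lean was not seen, as 32 of the 65 members with a read were above 0 and 33 below, with a median of -0.0047. The members added there each averaged under 1 FPKM, many with few reads, so their signs do not show that the lean is absent. Other protein-coding genes with less than 1000 bases of exon had a median of -0.0093 over 103 tested genes. In bulk RNA, fewer expressing cells and less RNA per cell cannot be told apart.

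The member past the threshold was H2BC21 (HIST2H2BE, ENSG00000184678, chromosome 1, 149884459 to 149886652, minus strand), which encodes an H2B. It was at 5.15, 4.39 and 5.35 FPKM in NCa, NCb and NCc and at 7.10, 6.49 and 6.56 FPKM in siPrp19a, siPrp19b and siPrp19c, from 142 to 302 reads. Every siPrp19 library lay above every NC library. H2BC21 rose 1.35-fold, from 4.96 ± 0.51 to 6.71 ± 0.33 FPKM (SD, n = 3), with a log2 fold change of 0.37 ± 0.085 (SE, limma adjusted p = 0.0445). The call was lost without NCa (adjusted p = 0.122), NCb (0.133), siPrp19a (0.0880), siPrp19b (0.133) or siPrp19c (0.133). It remained without NCc (0.0371), which left NCa and NCb, the closest pair of libraries, as the NC group. It was also lost without the filter (0.110) and without the variance trend (0.0552). It did not pass in the 4 libraries with matching labels (log2 fold change 0.32, adjusted p = 0.371) or by recorded label (0.057, adjusted p = 1.00).

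H2AC25 and H2AC6, which encode H2A proteins, differed by similar amounts but did not pass. H2AC25 (HIST3H2A) was at 14.7, 15.6 and 18.8 FPKM in NC and 20.5, 22.4 and 22.0 FPKM in siPrp19, without overlap, and its log2 fold change was 0.39 ± 0.099 (SE, limma adjusted p = 0.0628). H2AC6 (HIST1H2AC) was at 12.8, 11.1 and 13.6 FPKM in NC and 15.7, 16.2 and 15.6 FPKM in siPrp19, also without overlap, with a log2 fold change of 0.32 ± 0.085 (SE, limma adjusted p = 0.0672). Both passed under quantile normalization, scaling to total reads, a model of the recovered reads, and a correction for GC content and length, with adjusted p-values from 0.0139 to 0.0354. Without NCc, 5 members passed, namely these H2A genes, H2BC21, H2BC12 and H1-2. The NC spread was then that of NCa and NCb, the closest pair of libraries. Calls over all genes rose there from 1089 to 1354. H2BC12 itself had a log2 fold change of 0.22 ± 0.11 (SE, limma adjusted p = 0.260), and passed under quantile normalization at 0.39 (adjusted p = 0.0182). In the 4 libraries with matching labels, H2AC25 was at 0.33 (limma adjusted p = 0.458) and H2AC6 at 0.23 (0.500), and by recorded label they were at 0.056 and -0.017, none of which passed.

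**Figure D3:**
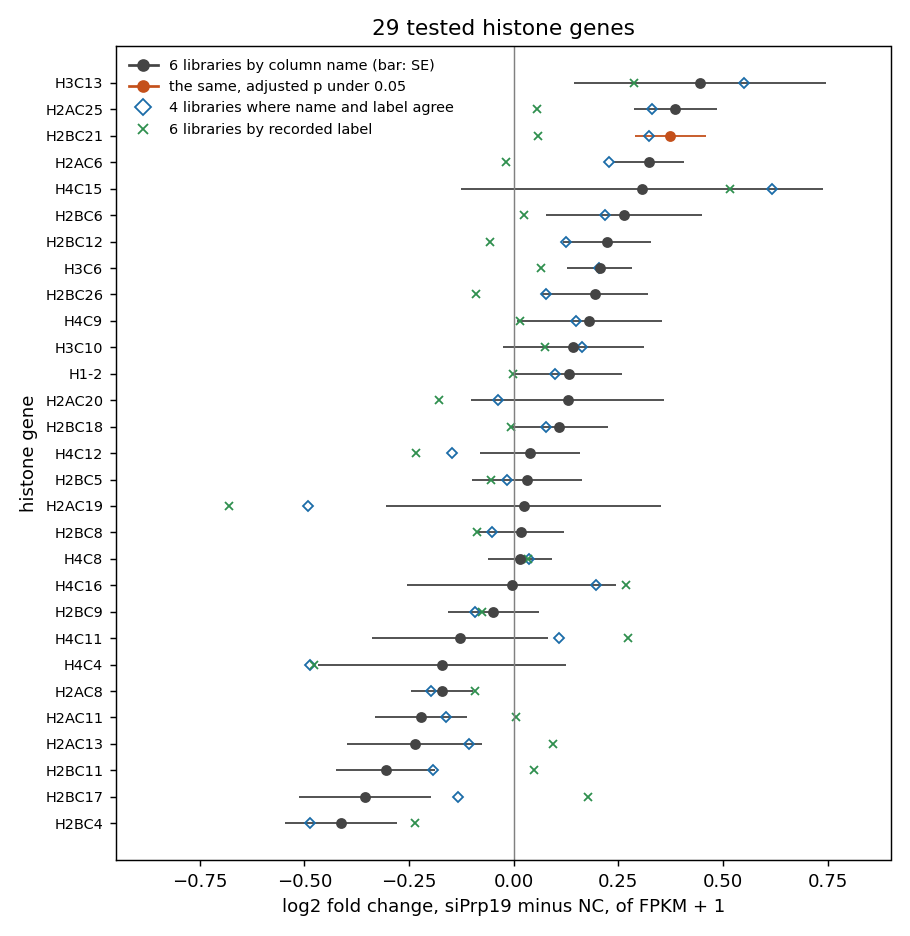
Log2 fold change of FPKM + 1, siPrp19 minus NC, for the 29 tested histone genes. Circles with SE bars are the 6 libraries by column name, diamonds the 4 libraries with matching name and label, and crosses the 6 libraries by recorded label. Only H2BC21 (orange) passed the adjusted threshold, and its value by recorded label was 0.057.

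The lowest fold changes also belonged to H2B genes. H2BC4 (HIST1H2BC) was at 4.09, 4.47 and 4.04 FPKM in NC and 2.20, 3.56 and 3.08 FPKM in siPrp19, with a log2 fold change of -0.41 ± 0.13 (SE, limma adjusted p = 0.118). H2BC11 (HIST1H2BJ) was at 5.12, 7.35 and 6.30 FPKM in NC and 4.60, 4.78 and 5.11 FPKM in siPrp19, where NCa and siPrp19c nearly touched, with a log2 fold change of -0.31 (adjusted p = 0.176). H2BC17 had a log2 fold change of -0.35, H2AC13 of -0.24 and H2AC11 of -0.22, none of which passed. The largest positive value belonged to H3C13, at 3.53, 1.98 and 0.849 FPKM in NC and 3.23, 2.51 and 3.24 FPKM in siPrp19. These groups overlapped (log2 fold change 0.45 ± 0.30, SE, limma adjusted p = 0.427), and 51.3% of its 100-base stretches are found in other genes.

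Counted by overlap alone, all siPrp19 libraries were above all NC libraries in 5 of 29 tested members (17.2%), against 13.2% of all tested genes. These were H2BC12, H2AC25, H2AC6, H2BC21 and H3C6. All lay below in 4 members (13.8%), against 18.1% of all genes, and these were H2BC11, H2BC4, H2AC8 and H2BC17. By class, the median log2 fold change was 0.024 over 7 H2A genes, 0.033 over 11 H2B genes, 0.21 over 3 H3 genes and 0.014 over 7 H4 genes. The 6 tested HIST2 genes were all above 0, with a median of 0.22, whereas 11 of 20 HIST1 genes were above 0, with a median of 0.016. Of all 13718 tested genes, 6307 were above 0. Among the HIST2 genes, H4C15, H2AC19 and H3C13 share 100%, 96.8% and 51.3% of their 100-base stretches with other genes. In the 4 libraries with matching labels, H2AC19 was at -0.49 and H2AC20 at -0.037. The counts of members follow from the 29 genes that passed the filter and were not tested further.

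In the 4 libraries with matching name and label, no member passed, against 0.0146% of all tested genes. Unadjusted p was under 0.05 for 3 of the 29 members there (10.3%), against 12.3% of all genes, and 16 members had fold changes above 0. By recorded label, no member passed and neither did any other gene (0%), with an unadjusted p under 0.05 in 2 members (6.90%) and 191 of all genes (1.39%) by limma. No member passed in the alternatives of either comparison.

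The summed level of the 71 members was 390, 366 and 458 FPKM in NCa, NCb and NCc and 451, 443 and 447 FPKM in siPrp19a, siPrp19b and siPrp19c. NCc was the highest library and the groups overlapped, with means of 405 ± 47.6 and 447 ± 4.03 FPKM (SD, n = 3). Without H2BC12, the ratio of siPrp19 to NC means was 1.07, compared with 1.11 for all members. As a share of recovered reads, the members took 0.0289%, 0.0273% and 0.0317% in NC and 0.0344%, 0.0338% and 0.0348% in siPrp19. These shares did not overlap, so the separation of the groups depends on the scaling. By recorded label both the sums and the shares overlapped, with mean shares of 0.0315% under NC and 0.0322% under siPrp19. Genes of the 12 listed replacement and other unclustered histones, which are expressed outside S phase as well, summed to 631, 633 and 765 FPKM in NC and 538, 661 and 638 FPKM in siPrp19.

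**Figure D4:**
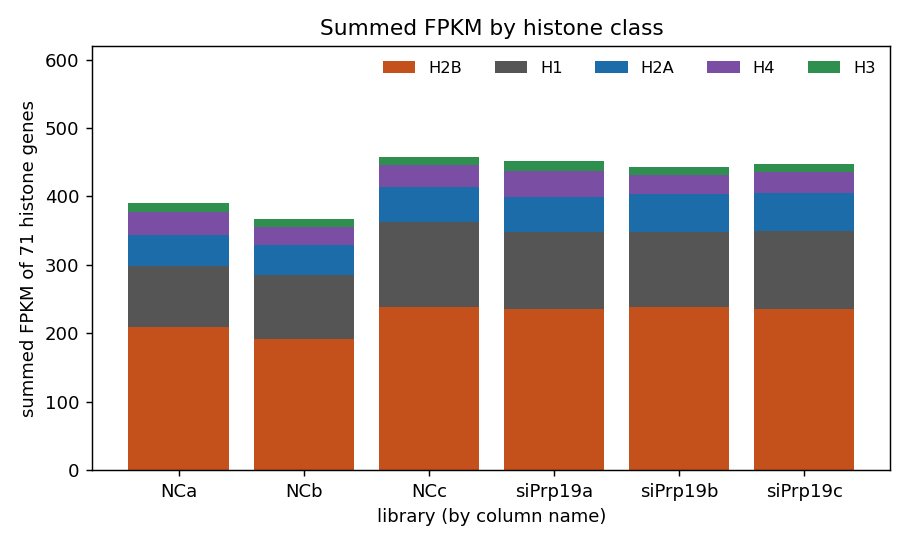
Summed FPKM of the 71 histone genes in each library, stacked by histone class. Bars start at 0 and carry no error, since each is 1 library. H2B and H1 genes make up most of each bar, and NCc (458 FPKM) reaches the height of the siPrp19 libraries (443 to 451 FPKM).

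As most of these mRNAs normally lack a poly(A) tail, other RNAs without a tail were read in the same libraries. Of 28 gene entries for such RNAs, between 19 and 25 had no read in a given library. RN7SL2, an RNA of the signal recognition particle, was the exception at 184, 205 and 400 FPKM in NC and 11.6, 198 and 396 FPKM in siPrp19, so that siPrp19a lay far below the others. SCARNA6 and SCARNA5, small Cajal body RNAs, reached at most 2.56 and 0.983 FPKM. RNU5A-1 and SCARNA7 stayed below 0.6 FPKM. Without RN7SL2, the list summed to 2.08 to 3.54 FPKM, compared with 366 to 458 FPKM for the histone genes. Differences between these lists in transcript length and near-identical copies were not examined. The sums therefore do not show how well RNA without a tail was recovered. Whether poly(A) RNA was selected is not given in the sources used here, and its part in the histone levels was not tested.

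Factors that make and process histone mRNA were then examined. All 34 listed factors were tested, 4 fell (11.8%) and none rose at an adjusted p of 0.05 (limma, by column name), against 5.37% of all genes that fell and 2.57% that rose. CSTF2, a cleavage stimulation factor, fell from 22.5 to 23.7 FPKM in NC to 12.2 to 13.5 FPKM in siPrp19 (log2 fold change -0.81, adjusted p = 0.00225). CDK2, the kinase that acts with cyclin E on NPAT, had a log2 fold change of -0.50 (adjusted p = 0.0140) and the cap-binding subunit NCBP2 of -0.40 (0.0199). MTBP, also on the list, was at -0.36 (0.0408). A role of MTBP in histone mRNA was not established here, so the share of 11.8% includes a gene of uncertain place. The dedicated factors did not pass. SLBP, the stem-loop binding protein, was at 41.7, 42.9 and 50.6 FPKM in NC and 42.8, 44.2 and 44.1 FPKM in siPrp19 (log2 fold change -0.039, adjusted p = 0.834). NPAT, the activator of histone gene transcription, had a log2 fold change of 0.20 (0.359), CASP8AP2, which is needed for histone gene expression, of 0.19 (0.488), and HINFP, an activator of H4 genes, of 0.040 (0.838). Of the U7 particle, LSM10 was at 0.070 (0.817) and LSM11 at 0.18 (0.297), and its partner ZNF473 was at 0.15 (0.434). The exonuclease ERI1, which binds the stem-loop, was at -0.29 (0.0797) and passed only without NCc among the alternatives run (0.0248). That fit left NCa and NCb, the closest pair of libraries, as the NC group.

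Replacement histones, chaperones and S phase genes were read as well, while histone demand itself was not measured. Among 11 tested replacement and other unclustered histones 1 fell (9.09%, against 5.37% of all genes) and none rose. It was CENPA, the centromeric H3 (log2 fold change -0.46, limma adjusted p = 0.0232), while H2AZ2 (-0.25, 0.125) and MACROH2A1 (0.18, 0.137) did not pass. Among 17 tested histone chaperones 4 fell (23.5%, against 5.37% of all genes) and none rose. They were ASF1A (-0.71, 0.00406), HJURP (-0.43, 0.0181), RBBP4 (-0.31, 0.0309) and NASP (-0.31, 0.0387), which handle H3 and H4 or, for HJURP, CENPA. Among 27 S phase and cell cycle genes 5 fell, namely TYMS (-1.10, 0.00182), CCNB1 (-0.59, 0.00985), CDK1 (-0.48, 0.0111), UHRF1 and TK1, and 1 rose, the inhibitor gene CDKN1A (0.62). That is 22.2% called in either direction, against 7.94% of all genes. Cell type markers moved as well. Of 9 tested sympathoadrenal markers, 2 were called lower (22.2%, against 5.37% of all genes) and 8 were below 0, against 7411 of all 13718 tested genes. The 5 mesenchymal neuroblastoma markers were all below 0 (median -0.23), and none was called. PTPRC was at -0.63 (limma adjusted p = 0.0202). The part of these markers in the results was not tested. The S phase list had 25 of 27 genes below 0 and a median of -0.26, against 10 of 29 below 0 and a median of 0.039 in the histone genes. Of the list genes named here as fallen or risen, CSTF2, ASF1A and TYMS passed whichever library was left out, and each of the others lost its call without at least 1 library, with adjusted p-values up to 0.164 (limma, NASP). The difference between the lists was not tested, and none of the listed genes passed in the 4 libraries with matching labels or by recorded label.

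**Figure D5:**
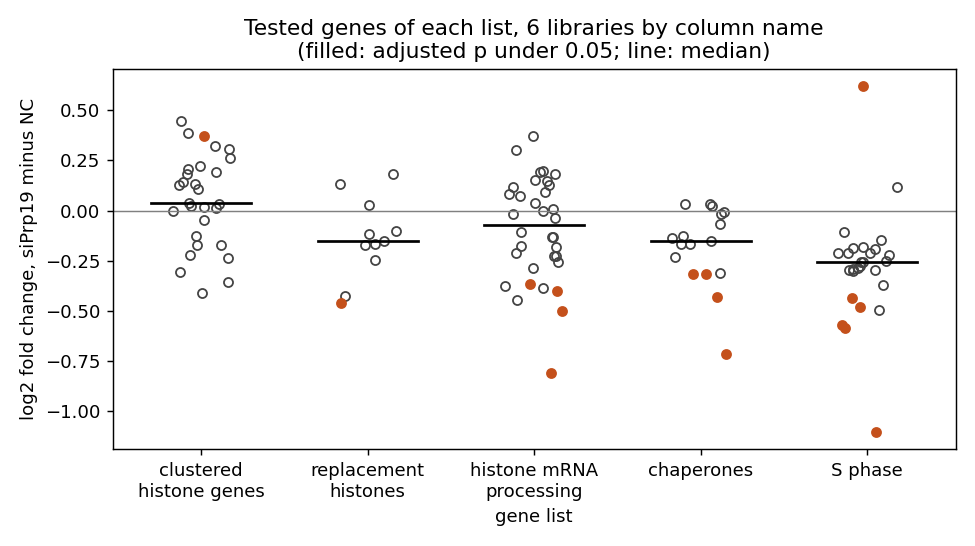
Log2 fold change by column name of the tested genes of each list, with filled points past an adjusted p of 0.05 and lines at the medians. The clustered histone genes centre near 0 (median 0.039), and the S phase genes lie mostly below 0 (median -0.26).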

How the data were processed

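RNA-seq was carried out on 6 libraries of SK-N-AS cells, 3 with NC and 3 with siPrp19 column names. The authors deposited 1 FPKM value per gene and library, made per their processing notes with HISAT2 2.0.5, featureCounts 1.5.0-p3 and hg38. The library kit was NEBNext Ultra RNA, and the strandedness was not given in the sources used here, so overlapping antisense genes cannot be told apart. FPKM multiplied by merged exon length (GENCODE 29) gave whole reads for 100% of values within 0.1 read. The deposited values already had equal median ratios between libraries (1.01 in each), so rescaling by them changed nothing but a constant.

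Genes with a mean of at least 1 FPKM were tested as log2(FPKM + 1), which understates changes of low genes, in limma 3.58.1 (R 4.3.3) with a trend of variance on level, and p-values were adjusted by Benjamini-Hochberg across the 13718 genes fitted. The fits were also run on simulated reads of independent libraries with the same dispersion for all genes. Such reads hold no close pairs of libraries, so these runs do not show how the p-values behave with such pairs. Python 3.11.15, pandas 2.3.3, scipy 1.17.1 and matplotlib 3.10.9 were used. A value column was assigned to the sample whose description it names, and 0 value columns were left unassigned. Because the sample under which NCb and siPrp19b are recorded states the other group, the recorded grouping and the 4 unaffected libraries were also fitted.

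The members and gene lists were chosen with earlier results of these data known. Named members were the 10 with the highest mean FPKM, those past the adjusted threshold, and the 5 highest and 5 lowest fold changes by column name. From the lists, the 3 smallest p-values each and 8 dedicated histone factors were named, and for RNAs without a tail the 5 highest. Further names (H2BC26, H2AC12, H2AC19, H2AC20, H2AC8, H3C6, H3C10, H4C14, H1-4, MTBP, NASP, UHRF1, TK1, CDKN1A, the markers and the members without reads) were chosen after their values were seen. Alternatives were a pseudocount of 0.1, no filter, quantile normalization, median-ratio rescaling, no trend, voom on recovered reads, correction for GC content and length with splines of 4 degrees of freedom, a replicate block, leaving out each library and, chosen after seeing the data, scaling to total reads. Proteins and a genome sequence were not used here.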

Additional observations from a re-analysis of the deposited data

How the results depend on the processing

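By column name, 1089 genes and 1 histone gene passed in the fit reported above. Without the filter 512 genes and 0 histone genes passed, and the histone median was -0.0047. Quantile normalization gave 4 histone genes, while total-read scaling and voom gave 3 each, and all of these were higher in siPrp19. The correction for GC content and length gave 1796 genes and 3 histone genes, and the fit without the trend 0 histone genes. The median log2 fold change of the tested histone genes was 0.11 with total-read scaling and 0.19 with voom, where the median over all genes was 0.053 with voom. Leaving out 1 library gave between 253 (without siPrp19c) and 1354 genes (without NCc), between 0 and 5 histone genes, and medians of 0.021 to 0.11. With the replicate number of the columns as a block, 0 histone genes passed, and H2BC21 had a log2 fold change of 0.37 (limma adjusted p = 0.0524). With the block and the GC and length correction 2 passed, H2AC25 and H2BC21. Deviations of same-numbered libraries correlated at 0.13, -0.049 and 0.20 by column name and at 0.39, -0.17 and 0.32 by recorded label, so the numbers were not taken to pair the libraries.

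In the 4 libraries with matching labels, 2 genes passed in the reported fit, and 0 without the filter, 266 with voom and 0 to 70 when 1 library was left out, in which case the lone library is assumed to vary like the others. The histone median there was 0.077, and it was -0.029 without the filter, 0.042 with quantile normalization, 0.12 with total-read scaling, 0.18 with voom and -0.038 to 0.11 with 1 library left out. By recorded label it was 0.0062, and -0.063 to 0.041 with 1 library left out.

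Directions that turned belonged to genes past no threshold in the fits concerned. SLBP was at 0.082 with quantile normalization, 0.036 with total-read scaling and 0.036 with voom, and between -0.091 and 0.045 with 1 library left out. HINFP was at -0.0017 with quantile normalization. By recorded label, H2AC6 was at 0.024 with quantile normalization, 0.010 with total-read scaling and 0.021 with voom. With 1 library left out, H2BC5 ranged from -0.070 to 0.17, H2BC8 from -0.047 to 0.10, H4C15 from -0.047 to 0.79, H4C8 from -0.041 to 0.054 and LSM10 from -0.048 to 0.24. By recorded label, H2AC6 ranged from -0.098 to 0.14, H2AC25 from -0.095 to 0.20 and H2BC21 from -0.057 to 0.24. The cause of these changes was not tested. Over 16 alternatives by column name, PRPF19, CSTF2, ASF1A and TYMS kept their calls. The call was lost in 1 for CCNB1 (without siPrp19c), 3 each for CDK1 and CDK2, 4 each for NCBP2, HJURP and UHRF1, 5 each for CENPA, TK1 and CDKN1A, 8 for H2BC21, 9 for MTBP and 10 each for RBBP4 and NASP. Of the 71 members, 42 lay under the filter on mean FPKM, so their changes were not tested.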
